A study of Drosophila melanogaster and Drosophila melanogaster x Drosophila simulans and Drosophila simulans with 6 samples.

Results

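The genes described here are 9 members of the epidermal growth factor receptor (EGFR) pathway that act in the patterning of the Drosophila egg chamber. They were set by gene identifier, with earlier results of these data known. They are 9 of 13973 D. melanogaster genes in a table of 28229 genes from D. melanogaster and D. simulans. The members are the receptor gene Egfr (Dmel_CG10079), the ligand gene spi (Dmel_CG10334), the ligand-processing genes rho (Dmel_CG1004) and stet (Dmel_CG33166), the transcription factor genes pnt (Dmel_CG17077) and aop (Dmel_CG3166), and the inhibitor genes kek1 (Dmel_CG12283), sty (Dmel_CG1921) and aos (Dmel_CG4531). The question addressed was how the D. melanogaster alleles of these genes were expressed in the ovaries of interspecific hybrids, relative to the other D. melanogaster genes, compared with the maternal line.

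Ovarian polyadenylated RNA was sequenced in 3 groups of 2 libraries, the maternal D. melanogaster line Hmr2, the paternal D. simulans line w501, and F1 hybrid females. The Hmr2 line carries In(1)w[m4], In(1)AB and y[2] Hmr[2], an X chromosome inversion with an allele of Hmr, a gene whose mutations rescue hybrids. The hybrids inherited this X from their mothers and another from D. simulans, so the allele was present in both groups of the main comparison. Most hybrid females had strongly reduced ovaries, and by the study's methods only ovaries with several ovarioles of egg chambers were used, so the hybrid libraries stand for the better developed ovaries. For the study's analysis of phenotypes, ovaries of hybrid and parental females were dissected a few days after eclosion. The age of the ovaries in the RNA libraries described here is not stated by group, and no treatment is named. The methods describe the libraries of each group as biological replicates, and the number of animals per library is not given in the sources used here.

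In EGFR signalling a ligand outside the cell binds the receptor tyrosine kinase, which switches on the Ras and MAP kinase cascade, and the cascade changes the activity of ETS-family transcription factors. In the ovary the ligand Gurken from the oocyte signals to the overlying follicle cells and sets their posterior and dorsal fates, and these cells later make the patterned eggshell. Several inhibitors of the pathway are themselves switched on by it in various tissues and limit its range.

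The libraries held 12981002 to 22363396 estimated counts over the genes of both species. D. melanogaster genes took 45.1% and 47.7% of the counts of the hybrid libraries, and 2.61% and 2.65% of those of D. simulans, where they mark reads placed on the wrong species. Normalised read counts are given as CPM, D. melanogaster gene counts scaled to a common library size with TMM factors, which removes the dose of the genome as a whole. Of the 8202 D. melanogaster genes tested, 10.3% were called lower and 2.99% higher in hybrids, at an adjusted p below 0.05 in the quasi-likelihood test of edgeR and a change of at least 2-fold.

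All 9 members were tested. Egfr, rho, stet, kek1, sty and aos were called lower in the hybrid, none was called higher, and spi, pnt and aop were not called. At an unadjusted p below 0.05 in edgeR, 7 were lower and 1, aop, higher, and DESeq2 called 0 higher. The share of all tested genes at that unadjusted p was not computed here. The median log2 fold change of the 9 members was -1.10, against 0.00 over all tested genes. Both hybrid libraries lay below both D. melanogaster libraries for 7 members and above them for spi and aop, where 37.2% of all tested genes lay below and 36.6% above. The count of 6 members called lower fell to 3 (Egfr, kek1 and sty) without D. melanogaster replicate 1, without hybrid replicate 1 or without hybrid replicate 2, and was 6 without D. melanogaster replicate 2. With DESeq2 it was 4.

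**Figure D1:**
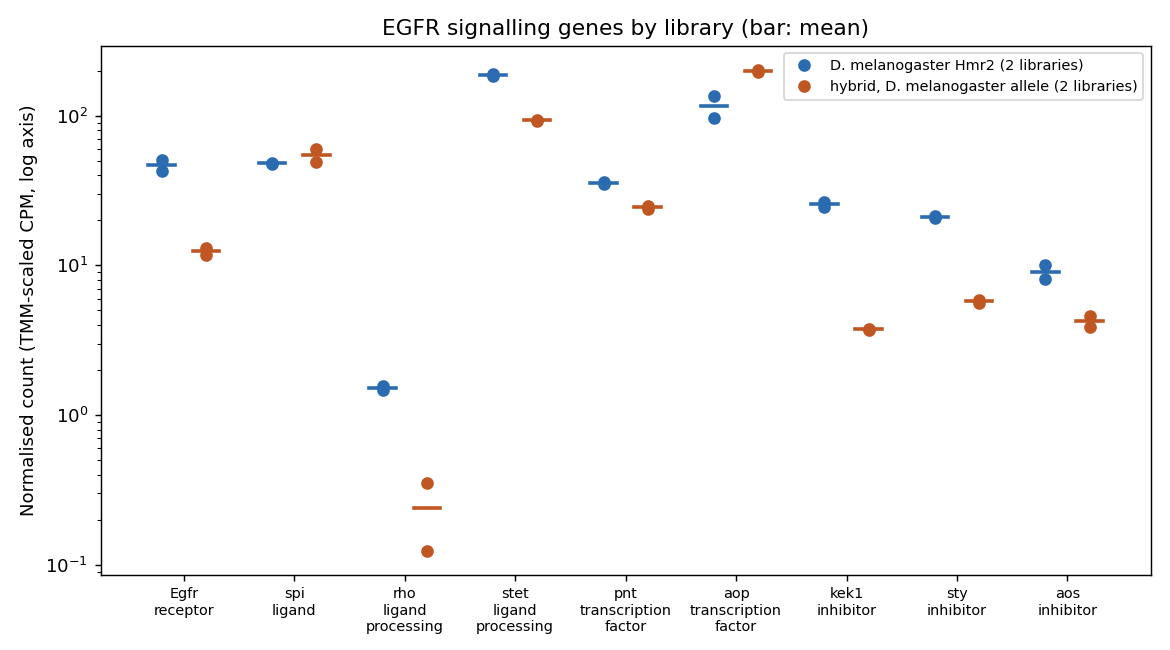
Normalised read count (TMM-scaled CPM, log axis) of the D. melanogaster allele of each of the 9 genes in the 2 D. melanogaster Hmr2 libraries (blue) and the 2 hybrid libraries (orange). Points are libraries and bars are group means, and the hybrid points lie below the D. melanogaster points for Egfr, rho, stet, pnt, kek1, sty and aos and above them for spi and aop.

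Egfr encodes the only EGF receptor of the fly and lies on chromosome arm 2R, from 21522420 to 21559977 on the plus strand (Release 6, as for all positions). Its normalised read count was 50.4 and 42.9 CPM in D. melanogaster and 13.2 and 11.7 CPM in the hybrids. The groups did not overlap, and the gap between them was larger than the difference between the libraries of either group. Egfr was 3.76-fold lower in the hybrid (log2 fold change -1.91, SE 0.19, 95% interval -2.36 to -1.46, edgeR adjusted p = 0.00147). The estimated counts behind these values were 872 and 558 in D. melanogaster and 106 and 99.3 in the hybrids.

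The ligand gene spi (2L, 19567900 to 19577315, minus strand) encodes a membrane-bound precursor related to TGF-alpha, which signals after it is cut. It was measured at 48.7 and 47.5 CPM in D. melanogaster and at 59.6 and 49.2 CPM in the hybrids. The second hybrid library lay close to both maternal libraries, and the log2 fold change of 0.18 did not pass the test (SE 0.17, 95% interval -0.21 to 0.57, edgeR adjusted p = 0.442). The ligand and its receptor, at nearly equal CPM in D. melanogaster, differed in CPM in the hybrids. The difference between their fold changes was not tested. CPM are not scaled to transcript length, and per length spi stood above Egfr in D. melanogaster too (mean TPM 26.5 against 6.67).

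The genes rho and stet encode rhomboid proteases, which cut the precursors of EGFR ligands inside the membrane. In the fly, rho is the rhomboid known from dorsal anterior follicle cells, and stet is known from the germline. They are neighbours on 3L, rho from 1463811 to 1468944 on the plus strand and stet from 1475438 to 1489547 on the minus strand, with 6493 bp between them. Expression of rho was near the limit of detection, at 1.56 and 1.46 CPM in D. melanogaster and 0.124 and 0.353 CPM in the hybrids. These values rest on 27 and 19 counts in D. melanogaster and on 1.22 and 3.43 estimated counts in the hybrids, and the groups did not overlap. The ratio of the pooled counts, 4 against 46 after rounding, was 0.177 after scaling, with an exact 95% interval of 0.0464 to 0.486 that covers counting error only. The fitted log2 fold change was -2.60 (SE 0.61, 95% interval -4.02 to -1.17, edgeR adjusted p = 0.0253). This call was lost without D. melanogaster replicate 1 (edgeR adjusted p = 0.0702), without hybrid replicate 1 (0.198), without hybrid replicate 2 (0.0578) and with DESeq2 (0.0959), all with the hybrid lower.

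In contrast, stet was the member with the most reads in D. melanogaster. It was measured at 190.2 and 183 CPM there and at 92.8 and 93.2 CPM in the hybrids. The libraries of each group lay close together and the groups did not overlap. The change was just over the 2-fold line (log2 fold change -1.01, SE 0.15, 95% interval -1.36 to -0.65, edgeR adjusted p = 0.00574). With DESeq2, and without D. melanogaster replicate 1 (-0.99), the change was just under 2-fold, and without hybrid replicate 1 or hybrid replicate 2 the edgeR adjusted p was 0.0881 and 0.0937.

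Of the ETS transcription factors, pnt (3R, 23290231 to 23346167, minus strand) encodes the activator that MAP kinase switches on, and aop (2L, 2156484 to 2178754, minus strand), also known as yan, encodes the repressor that MAP kinase switches off. The pnt value was 34.8 and 36.3 CPM in D. melanogaster and 24.0 and 25.1 CPM in the hybrids. The hybrid libraries were both lower, but the test was not passed (log2 fold change -0.54, SE 0.17, edgeR adjusted p = 0.0584). The repressor gene aop stood at 95.8 and 135 CPM in D. melanogaster and at 196 and 202 CPM in the hybrids. It was the member with the widest difference between the 2 D. melanogaster libraries in CPM, and both hybrid libraries lay above them. The adjusted p passed but the change was under 2-fold (log2 fold change 0.79, SE 0.20, 95% interval 0.33 to 1.25, edgeR adjusted p = 0.0310). The log2 fold change of aop was 0.55 and 1.02 without D. melanogaster replicate 1 and 2. It was 0.81 and 0.77 without hybrid replicate 1 and 2. Of the exonic bases of aop, 5.63% overlap CG15382 on the other strand, and a strand option for the counting is not given in the sources used here.

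Among the inhibitors, kek1 (2L, 12817000 to 12822787, minus strand) encodes a transmembrane protein with leucine-rich repeats that binds the receptor, and in the ovary it is a known target of the pathway in follicle cells. It was measured at 24.7 and 26.6 CPM in D. melanogaster and at 3.72 and 3.77 CPM in the hybrids. The libraries within each group differed little beside the gap between the groups. kek1 was 6.82-fold lower in the hybrid (log2 fold change -2.77, SE 0.24, 95% interval -3.32 to -2.22, edgeR adjusted p = 0.000862), which placed it at percentile 1.74 from the lowest fold change of all tested genes.

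The gene sty (3L, 3401153 to 3424935, minus strand) encodes Sprouty, an inhibitor that acts inside the cell on the Ras pathway. Its values were 20.6 and 21.5 CPM in D. melanogaster and 5.59 and 5.89 CPM in the hybrids. The groups did not overlap, and sty was 3.66-fold lower (log2 fold change -1.87, SE 0.23, 95% interval -2.41 to -1.34, edgeR adjusted p = 0.00262). The gene aos (3L, 16470386 to 16483650, minus strand) encodes Argos, a secreted protein that binds Spitz and keeps it from the receptor. It was measured at 10.1 and 8.06 CPM in D. melanogaster and at 4.59 and 3.89 CPM in the hybrids. Again the groups did not overlap, but they lay closer together than those of kek1 and sty (log2 fold change -1.10, SE 0.31, 95% interval -1.81 to -0.38, edgeR adjusted p = 0.0409). The aos call was lost without D. melanogaster replicate 1, where the change was under 2-fold (-0.93), and without hybrid replicate 1 or hybrid replicate 2, where the edgeR adjusted p was 0.160 and 0.306.

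Per transcript length, the members spanned a wide range within a library. In D. melanogaster the order of mean TPM (transcript abundance per length, n = 2) was stet at 84.5 ± 4.44 (SD), spi at 26.5 ± 1.19, aop at 21.2 ± 4.54, pnt at 7.44, Egfr at 6.67 ± 0.971, sty at 4.62, kek1 at 3.71 ± 0.157, aos at 2.71 ± 0.486 and rho at 0.451 ± 0.0317. Of the neighbours in this order, pnt and Egfr differed by less than the SD of Egfr. In the hybrids the TPM order of the D. melanogaster alleles was stet at 30.2, aop at 27.9 ± 1.18, spi at 21.2 ± 3.18, pnt at 3.66 ± 0.144, Egfr at 1.29 ± 0.110, sty at 0.925 ± 0.0214, aos at 0.913 ± 0.118, kek1 at 0.449 ± 0.0235 and rho at 0.0666 ± 0.0425. There aop stood above spi and aos above kek1, the reverse of D. melanogaster, and sty and aos differed by less than the SD of aos. The hybrid TPM of stet, aop, pnt and kek1 include misplaced D. simulans reads, described below, which were not removed. The place of aop above spi is therefore uncertain.

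Because the transcripts of both species were quantified together, D. simulans libraries show how many reads of a D. simulans allele were placed on each D. melanogaster gene. These were 2.10 and 1.04 counts for Egfr, 2.04 and 1.04 for spi, 4.90 and 0 for sty, and 0 in both libraries for rho and aos. They were far more for pnt (104 and 198), kek1 (15.1 and 27.6), stet (162 and 343) and aop (436 and 640). Scaled to the D. simulans counts of the hybrids, such reads would make up 41.3% and 36.3% of the hybrid counts of pnt, 37.5% and 33.9% of those of kek1, 18.7% and 16.7% of those of aop and 17.7% and 16.2% of those of stet. The hybrid levels of the D. melanogaster alleles of these 4 members are therefore upper estimates. The scaling assumes that each D. simulans allele kept its parental level relative to the other D. simulans genes. For kek1 that allele was lower in the hybrids (log2 fold change -3.12, edgeR adjusted p = 9.76e-05), so its shares above are overestimates. For pnt, stet and aop the D. simulans allele was not analysed, so the assumption was not checked. With the expected counts subtracted under this assumption, the log2 fold change was -3.36 for kek1, -1.24 for stet and 0.54 for aop. For kek1 this subtracts too much, for the reason just given. The adjusted p of aop no longer passed (edgeR adjusted p = 0.0839), and pnt was called lower (-1.20, edgeR adjusted p = 0.00609). In the same fit aos missed the threshold (edgeR adjusted p = 0.0505), and the number of members called lower was again 6.

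**Figure D2:**
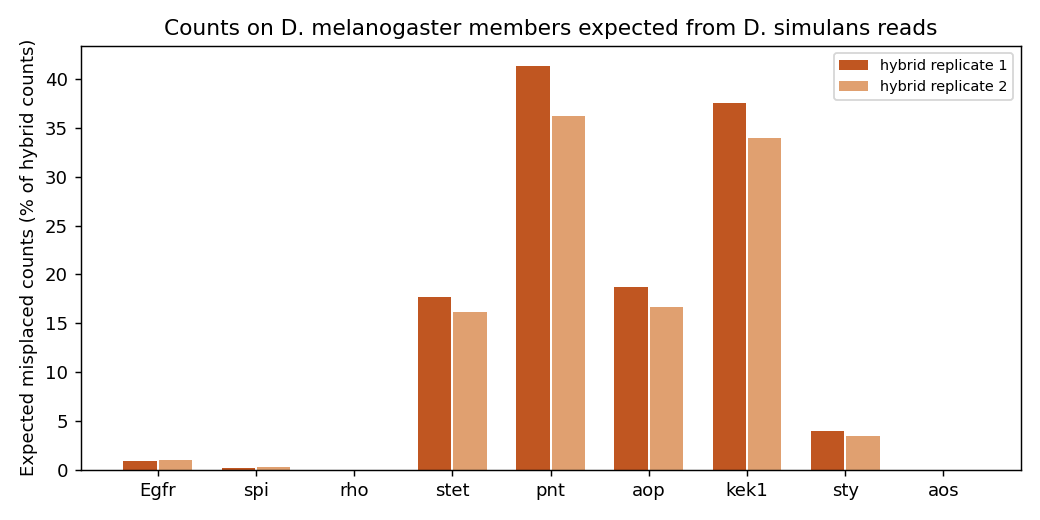
Expected share of the hybrid counts of each D. melanogaster gene that came from D. simulans reads, in percent, for hybrid replicates 1 and 2 (bars). The D. simulans alleles are assumed to keep their parental level, which makes the kek1 shares overestimates, since its D. simulans allele was lower in the hybrids. The share was highest for pnt (41.3% and 36.3%) and kek1 (37.5% and 33.9%), and under 1% for Egfr, spi, rho and aos.

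The D. simulans alleles of 4 members could be identified, those of Egfr, spi, rho and kek1, and the other 5 were not analysed here. They were compared between the hybrids and D. simulans, relative to the other D. simulans genes. Of 8207 D. simulans genes tested, 9.75% were called lower and 5.18% higher. Of the 4 alleles, 2 were called lower, those of Egfr and kek1, and 0 higher. Both hybrid libraries lay below both D. simulans libraries for Egfr, rho and kek1, as for 38.0% of all tested genes. This comparison shares its hybrid libraries with the comparison above. The D. simulans allele of Egfr was measured at 55.7 and 55.3 CPM in D. simulans and at 9.26 and 13.8 CPM in the hybrids (log2 fold change -2.27, SE 0.17, edgeR adjusted p = 0.00013). That of kek1 was at 18.5 and 20.1 CPM in D. simulans and at 2.47 and 1.95 CPM in the hybrids (log2 fold change -3.12, SE 0.22, edgeR adjusted p = 9.76e-05). For both genes the parental and hybrid libraries did not overlap. The D. simulans row of Egfr took 61.3 and 31.2 counts in the D. melanogaster libraries. With the counts expected from such reads subtracted, its log2 fold change was -2.58. That step assumes that the D. melanogaster allele of Egfr kept its parental level. As that allele was lower in the hybrids (log2 fold change -1.91), the step subtracts too much.

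The D. simulans allele of rho was at 1.97 and 1.30 CPM in D. simulans and at 1.23 and 0.650 CPM in the hybrids, and was not called (log2 fold change -0.75, SE 0.50, edgeR adjusted p = 0.244). The hybrid values lay below the parental ones by little for the first hybrid library. The D. simulans allele of spi was at 48.4 and 50.4 CPM in D. simulans and at 49.6 and 42.1 CPM in the hybrids, with overlapping groups (log2 fold change -0.11, SE 0.11, edgeR adjusted p = 0.432). Differences between the responses of the D. melanogaster and D. simulans alleles were not tested.

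Within the hybrid libraries, the D. melanogaster allele gave 54.2% (95% Wilson interval 47.1 to 60.9%) and 43.9% (37.5 to 50.3%) of the Egfr counts of both alleles, and 49.9% and 51.9% of the spi counts. The share was 56.1% (42.4 to 68.0%) and 64.9% (50.1 to 75.9%) for kek1, which includes misplaced D. simulans reads, overestimated above. For rho it was 9.40% (1.37 to 33.3%) and 38.1% (12.1 to 64.6%), so the share is poorly determined at this depth. The intervals cover counting error only. The Egfr share is a lower estimate, since its D. simulans row also took misplaced D. melanogaster reads, as given above.

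The sum of both alleles, as CPM of all listed counts without TMM factors, needs no scaling to the genes of 1 species and does not depend on which allele a read was placed on. For Egfr the sum was 48.0 and 43.2 in D. melanogaster, 52.5 and 51.2 in D. simulans, and 11.7 and 13.2 in the hybrids. Its hybrid mean was 27.3% of the D. melanogaster mean and 24.0% of the D. simulans mean. For kek1 the sum was 21.96 and 25.4 in D. melanogaster, 18.6 and 19.9 in D. simulans, and 3.21 and 2.92 in the hybrids, whose mean was 13.0% of the first parent. In both genes every hybrid library lay below all 4 parental libraries. How often other allele pairs showed this order was not computed here.

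For rho the sum was 1.44 and 1.39 in D. melanogaster, 1.85 and 1.21 in D. simulans, and 0.773 and 0.526 in the hybrids. The hybrid libraries were the lowest of the 6, and the hybrid mean was 45.9% of the D. melanogaster mean. For spi the sum was 43.6 and 45.5 in D. melanogaster, 45.7 and 46.6 in D. simulans, and 57.2 and 47.1 in the hybrids. The hybrid libraries were the highest of the 6, the second by little. These sums were compared as values, without a test and without the share of all allele pairs in the same order.

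**Figure D3:**
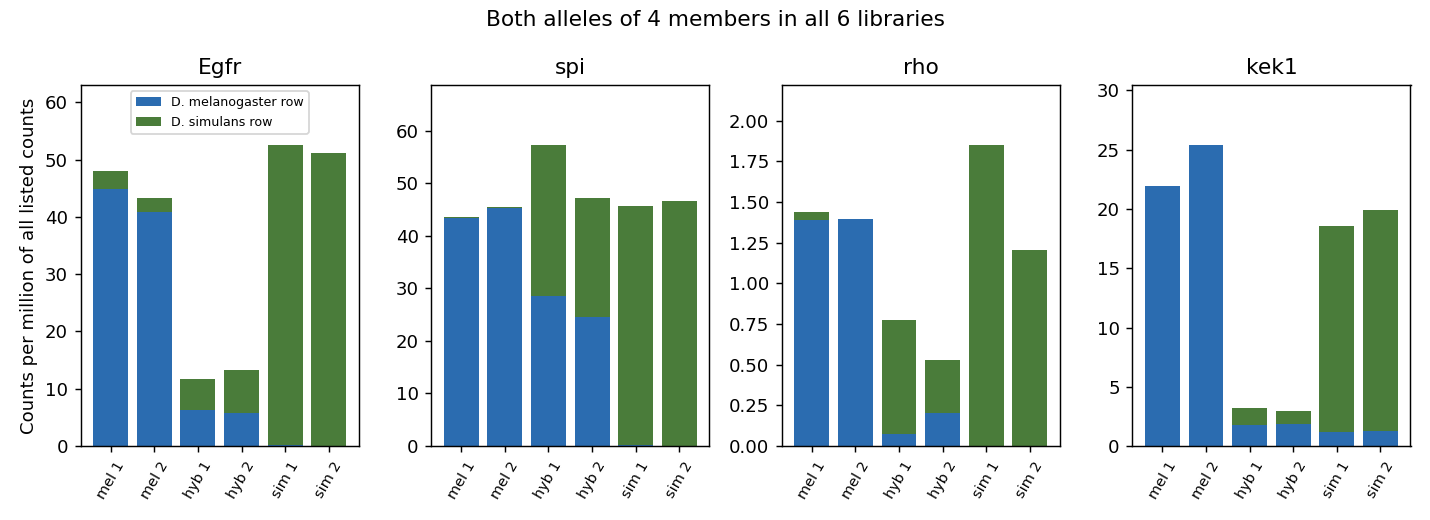
CPM of all listed counts on the D. melanogaster row (blue) and the D. simulans row (green) of Egfr, spi, rho and kek1, stacked, in each of the 6 libraries (mel, D. melanogaster Hmr2; hyb, hybrid; sim, D. simulans w501; the number is the replicate). The hybrid sums of Egfr (11.7 and 13.2) and kek1 (3.21 and 2.92) lie below all parental libraries, and those of spi (57.2 and 47.1) do not.

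Other genes of the pathway and genes of follicle cell patterning were listed in 4 groups of 44 genes, of which 39 were tested. Of these, 5 (12.8%) were called lower and 1 (2.56%) higher, against 10.3% and 2.99% of all tested genes. The median log2 fold change was 0.04. Of the 5 lower calls, 4 fell among the 9 tested follicle cell patterning genes and 1 in the ligand list. The pooled share therefore stands for no single list. Among the other ligands and ligand-processing genes, 5 of 6 were tested. The gene grk, which encodes Gurken, was at 46.2 and 36.7 CPM in D. melanogaster and at 19.1 and 14.7 CPM in the hybrids (log2 fold change -1.30, SE 0.22, edgeR adjusted p = 0.00830). The neuregulin-like ligand gene vn was higher but low in both groups, at 0.925 and 1.77 CPM against 3.48 and 4.24 CPM (log2 fold change 1.54, SE 0.44, edgeR adjusted p = 0.0453). The call of vn was lost without D. melanogaster replicate 1 and without either hybrid library (edgeR adjusted p from 0.0983 to 0.239). Star (S), needed for the export of ligand precursors, had a log2 fold change of -0.53, under 2-fold (edgeR adjusted p = 0.0436).

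Between the receptor and MAP kinase, 13 genes were tested with edgeR and 0 were called in either direction, with a median log2 fold change of 0.17. At an unadjusted p below 0.05, 1 of them was higher and 0 lower, and DESeq2 called 0. The 3 with the largest fold change were Raf (0.64, edgeR adjusted p = 0.0594), Sos (0.34, 0.169) and cnk (0.29, 0.217), which encode a kinase, an exchange factor and a scaffold of the cascade. Of 12 other inhibitors and feedback genes, edgeR and DESeq2 each called 0, and the median was 0.30. At an unadjusted p below 0.05 there were 5 higher and 3 lower in edgeR. For neither list was the share of all tested genes at that unadjusted p computed here. The genes with the largest fold change there were kek2 (1.32, edgeR adjusted p = 0.116), edl (-1.18, 0.0632) and ed (0.86, 0.0416). In the same list the adjusted p passed, with a change under 2-fold, for 4 genes that were higher (ed, Cbl, PTP-ER and Nf1) and 1 that was lower (Spred). By adjusted p alone, 558 of all 8202 tested genes were higher and 1233 lower. The difference between this list and kek1, sty and aos was not tested. Scaled to the counts of both species instead, Raf, Sos, cnk and ed had log2 fold changes below 0.

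Of 13 follicle cell patterning genes, 9 were tested and 4 were called lower, with 0 higher and a median log2 fold change of -0.96. Cad99C, a cadherin of follicle cell microvilli, was at 61.7 and 42.5 CPM in D. melanogaster and 11.5 and 16.6 CPM in the hybrids (log2 fold change -1.89, edgeR adjusted p = 0.00421). The homeodomain gene mirr, a dorsal target of Gurken signalling, was at 10.2 ± 0.316 CPM (SD, n = 2) against 3.57 ± 0.218 CPM (-1.51, edgeR adjusted p = 0.0132), and its call was lost without hybrid replicate 2 (0.0812). The zinc-finger gene br, which marks cells of the dorsal appendages, was at 37.8 and 30.4 CPM against 12.8 and 13.3 CPM (-1.39, edgeR adjusted p = 0.00532). The fourth was fng, a modifier of Notch (-1.12, edgeR adjusted p = 0.0453).

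**Figure D4:**
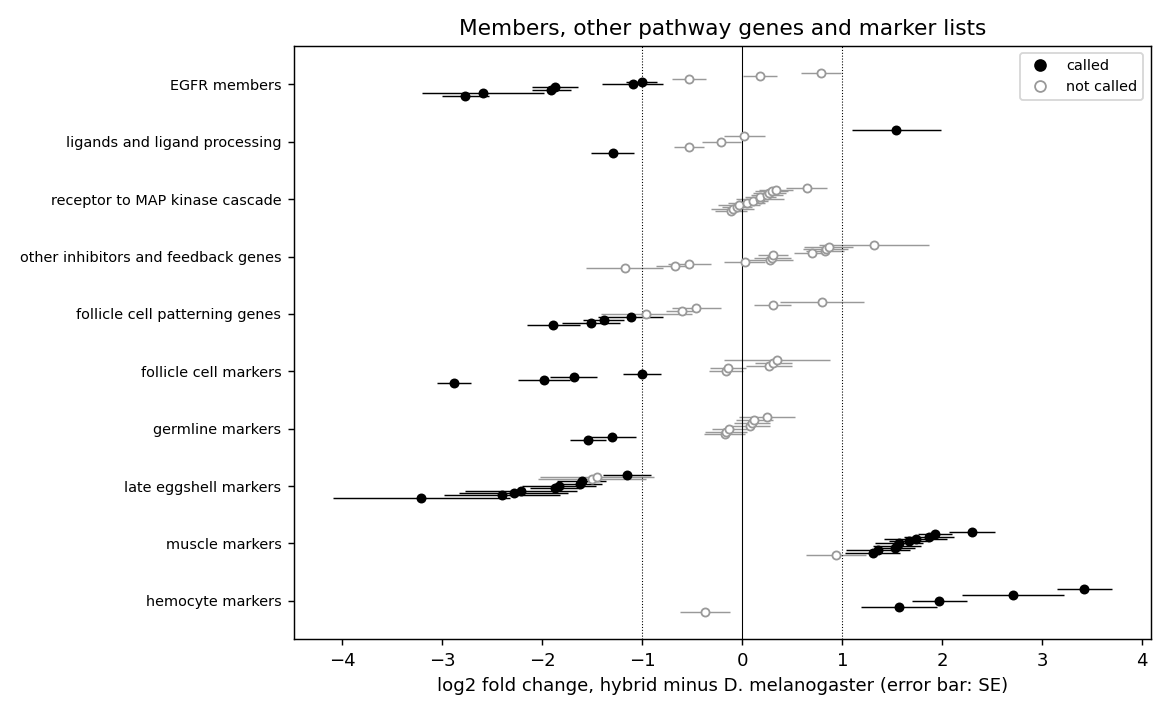
Log2 fold change (hybrid minus D. melanogaster, error bar SE) of the 9 EGFR genes, the tested genes of the 4 other pathway lists and of 5 marker lists; filled points were called, and dotted lines mark a 2-fold change. The 9 EGFR genes had 6 called lower, the cascade and the other inhibitors had 0 called, and the muscle markers had 10 of 11 called higher.

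Cell-type markers also differed between the groups, and in whole ovaries fewer cells of a type and less RNA per cell cannot be told apart. The sums in this paragraph are CPM of the D. melanogaster gene counts without TMM factors, unlike the values of single genes. Of 9 follicle cell markers 4 were lower (tj by a log2 fold change of -2.89, eya by -1.98, ct by -1.69, and Sox14) and 0 higher, with a median of -0.16 and summed levels of 487 and 564 CPM in D. melanogaster and 456 and 443 CPM in the hybrids. Of 11 eggshell markers, genes of the late chorion and of the earlier vitelline membrane, 9 were lower (sums 13203 and 7931 CPM, against 2397 and 3663 CPM). Of 9 germline markers 2 were lower (orb and bam). Of 11 muscle markers 10 were higher (sums 628 and 440.4 CPM, against 1978 and 1841 CPM), and 4 of 5 tested hemocyte markers were higher (sums 146 and 82.9 CPM, against 260 and 283 CPM), while the hemocyte marker He was at 0 in all 4 libraries. Of 4 tested fat body markers 2 were lower. The part of these differences in the fold changes of the EGFR genes was not tested.

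The 3 genes whose pattern lay nearest to that of Egfr, by the distance between centred log2 CPM over 4 libraries and among genes at or above the median level, were CaMKII, Yp1 and Yp3. CaMKII, a calcium-dependent kinase, was at 169 and 140.4 CPM in D. melanogaster and at 42.7 and 42.2 CPM in the hybrids, at a distance of 0.123. The yolk protein genes Yp1 and Yp3 were at distances of 0.192 and 0.233, with log2 fold changes of -2.09 and -2.10.

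Across the settings tried, Egfr, kek1 and sty were called lower in every one. Scaling to the counts of both species, which leaves in the smaller dose of the D. melanogaster genome, moved the median change over the D. melanogaster genes to -0.92 on the log2 scale. On that scale spi was at -0.74 and aop at -0.14, both above this median, and Egfr was at -2.83 and kek1 at -3.69, both below it.

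**Figure D5:**
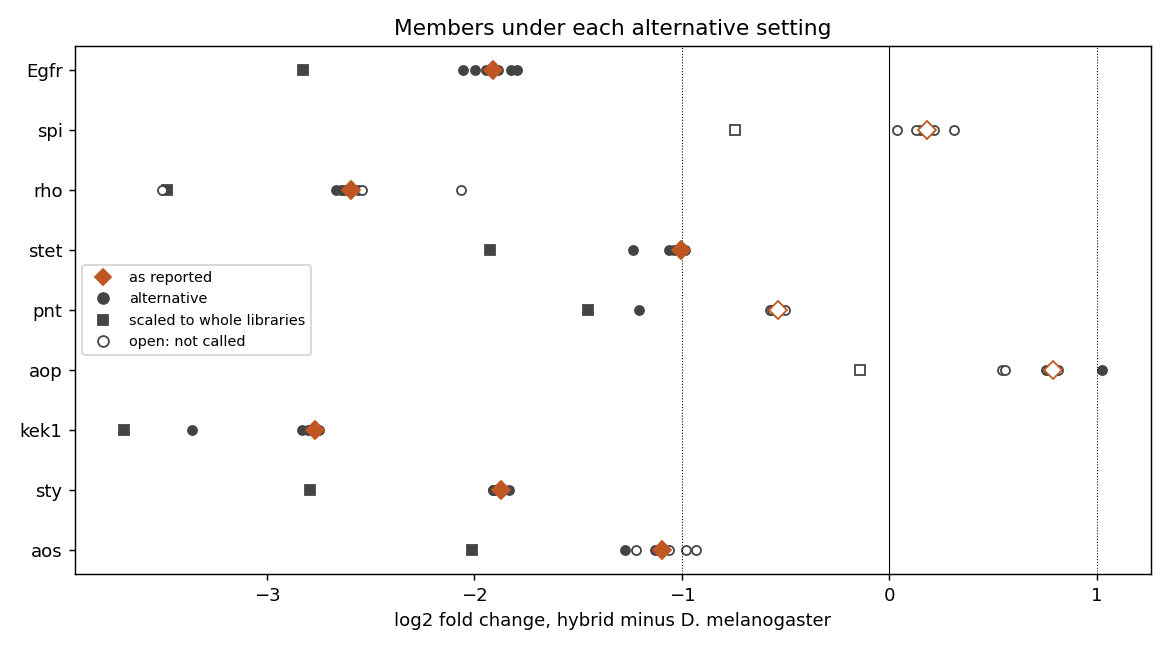
Log2 fold change (hybrid minus D. melanogaster) of each of the 9 genes as reported (diamonds) and under each other setting (circles; squares, scaling to whole libraries); open symbols were not called, and dotted lines mark a 2-fold change. Egfr, kek1 and sty were called in every setting, and the whole-library scaling lies about 0.92 below the reported values, as does the median of all genes.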

How the data were processed

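The authors assigned single-end reads with kallisto 0.50.0 to RefSeq transcripts of the 2 species merged and summed protein-coding transcripts to genes with tximport. The deposited estimated counts need not be whole and were rounded. The deposited TPM cover, as the authors ran them, every transcript of both species and served only to order genes within a group. The count column of D. melanogaster replicate 2 repeats a TPM header and was identified because its values are proportional to that TPM times length. Another 6 columns of lengths name no sample and were not used.

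Within each species' genes, the groups were compared in R 4.3.3 with edgeR 4.0.16 (filterByExpr with a minimum of 10 counts, TMM, glmQLFit and glmQLFTest, two-sided, Benjamini-Hochberg adjustment over all tested genes), and called at an adjusted p below 0.05 with a log2 fold change of 1 or more in size. Intervals are 95%. DESeq2 1.42.0 was an alternative. The procedure was tested on simulated data. Replicates of a group differed by more than counting noise, most in D. melanogaster. The chi-square per degree of freedom was 67.1 there, 15.8 in D. simulans and 8.52 in the hybrids.

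The members and gene lists were chosen with earlier results of these data known. Named genes are all members, the 3 tested genes with the largest fold change in each pathway list and the 3 nearest to Egfr. fng, the markers and the other genes outside this rule were named after their values were seen. D. simulans alleles were identified as the only rows whose 6 counts equal those listed under the gene's name in the study's table of orthologue pairs, which was used in part, for identity only. The pathway gene bwk matched no row. Positions are from the RefSeq annotation of Release 6, exons from the Ensembl annotation of that assembly.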

Additional observations from a re-analysis of the deposited data

How the results depend on the processing

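Alternatives were whole-library scaling, DESeq2 size factors, the DESeq2 test, no filter, at least 10 counts in every library, adjusted p alone, a test against a 1.5-fold change, subtraction of misplaced counts, a replicate block and leaving out each library, where the lone library left is assumed to vary like the other group. The number of members called lower ranged from 3 to 6 when a library was left out, and the number called higher from 0 to 1. With adjusted p alone, 1 member (aop) was called higher. Of the other pathway genes, 15 were called lower under whole-library scaling, 8 by adjusted p alone and 3 to 5 with a library left out. For the same genes called higher, the count was 0 under whole-library scaling, DESeq2, the 1.5-fold test and subtraction, 5 by adjusted p alone and 0 to 4 with a library left out. Over all D. melanogaster genes, 3604 were lower and 79 higher under whole-library scaling, 518 and 122 in the 1.5-fold test, 558 higher by adjusted p alone, and 578 to 1163 lower and 164 to 474 higher with a library left out. Whole-library scaling turned the sign of spi (-0.74), aop (-0.14), Sos (-0.59), Raf (-0.29), cnk (-0.63) and ed (-0.070), by construction, since it moves the median to -0.92. The D. simulans allele of spi ranged from -0.23 to 0.0098 with a library left out. The gene rho had too few counts for the filter on every library and has no value there. The cause of the other changes was not tested.

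Same-numbered libraries came from different animals, and the correlation of their deviations was 0.00381 over D. melanogaster and 0.0417 over D. simulans genes. With the replicate number as a block, 6 members were called lower, and 901 genes were lower and 298 higher in all. Precision is limited by 2 libraries per group and, for rho, by counts.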
